A study of Mus musculus with 8 samples.

Results

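The 42 genes described here encode proteins of mitosis, from the cyclins and kinases that drive entry into it to the motors and bundling proteins of the spindle. They were chosen by symbol, and each of the 42 has a row among the 23141 genes of the count table. The RNA came from RAW264.7 cells, a mouse macrophage line that grows continuously in culture, so that part of its cells are in mitosis at any time. Cells were left unstimulated (0 min) or were treated with 100 ng/ml lipopolysaccharide (LPS, from the outer membrane of E. coli O111:B4), which macrophages sense through Toll-like receptor 4, and 7 treated cultures were taken between 15 and 120 min, every 15 min up to 90 min. Each time point has 1 RNA-seq library, made from RNA depleted of ribosomal RNA, and no untreated culture of a later time is among the samples, so that time in culture and LPS cannot be told apart. The RNA is labelled as cytoplasmic, whereas the methods describe total RNA.

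Entry into mitosis is set off by Cdk1 bound to cyclin B. The chromosomes are then condensed, attached through their kinetochores to spindle microtubules and held by the spindle checkpoint until all are attached, after which the anaphase-promoting complex marks cyclin B and securin for destruction. Many of the mRNAs are made chiefly in late S phase, G2 and mitosis, through promoters that carry CCAAT boxes and a CHR (cell cycle genes homology region) element. In bulk RNA, a smaller share of cells in G2 and mitosis cannot be told apart from less mRNA per cell.

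The libraries held 100229997 to 159036125 reads counted on genes, and the smallest count of any of the 42 genes in any library was 1681, so that counting error is small and the lack of replicates is the limit. Counts were divided by median-of-ratios size factors ("normalized counts"). The share of reads on Rn45s, the precursor of ribosomal RNA, was 8.18 to 9.11% in the 0, 30, 60 and 120 min libraries and 12.96 to 20.54% in the 15, 45, 75 and 90 min libraries, which therefore stand apart. Of 11 macrophage markers, all were present (mean of 1198 normalized counts or more), with a summed level of 744417 to 841976 per library. Of 15 markers of other cell types, 7 had no read in any library, and the sum of the 15 was 225 to 331.

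All 42 mitosis mRNAs were well expressed before LPS. Their median level at 0 min was 49.95 rpkm (reads divided by the uniquely mappable length of the transcript and by the total of the library), against 5.33 for the 14424 genes with a read, and each of the 42 was above that value. Top2a, the topoisomerase that untangles sister chromatids, had the highest level at 161 rpkm (95% Poisson interval 160 to 162, counting error only). It was followed by Bub3 (123 rpkm), Bub1b (103 rpkm), Ube2c (100.0 rpkm) and Ccnb1 (98.8 rpkm). The lowest levels were those of Cdc25b (7.64 rpkm, interval 7.37 to 7.91), Cenpf (10.9 rpkm), Aspm (11.0 rpkm) and Cdc25c (11.8 rpkm). In this order, 16 of the 41 pairs of neighbours had overlapping intervals, among them Bub1b and Ube2c, Ube2c and Ccnb1, and Cenpf and Aspm.

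Over the 2 h of LPS, the mitosis mRNAs changed little and in both directions. A straight line over the 8 time points was fitted to each of 12168 genes with edgeR's quasi-likelihood test, with the scatter of the libraries about the line as the error and Benjamini-Hochberg adjustment over all genes tested. By this test 5 of the 42 genes fell (Kif20b, Ttk, Plk1, Bub1b and Aurka), where 23.7% of all genes tested fell. Another 15 rose (Cenpe, Prc1, Mki67, Cenpf, Kif4, Ccnb1, Top2a, Hmmr, Cdk1, Ube2c, Cdc20, Tpx2, Ncapg, Nusap1 and Bub3), where 23.7% of all genes rose. The other 22 did not pass the test, which does not show that they were constant. The share that fell was 11.9% and the share that rose was 35.7%. Of the 8406 genes tested with a mean of at least 1000 normalized counts, a level that each mitosis gene reaches, 22.9% fell and 28.3% rose. The median slope was 0.03 log2 units per hour, against a median of -0.00184 and quartiles of -0.163 and 0.159 over all genes tested, and the median size of the slope, whatever its sign, was 0.116 against 0.161.

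The direction of these changes depends on the scale. With total counts, which include Rn45s, as the scale, the median slope was -0.133 log2 per hour for all genes tested and -0.102 for the mitosis genes. Of the mitosis genes 16 fell and 2 rose, where 4466 of all genes tested fell and 1203 rose. With the 2 spike-in transcripts as the scale, the median slopes were -0.058 for all genes and -0.028 for the mitosis genes. Then 2 mitosis genes fell and 2 rose, where 1867 of all genes tested fell and 1101 rose. A change of scale shifts the slope of every gene by nearly the same amount. The distance of the mitosis genes above the median of all genes (0.031 with total counts, 0.03 with spike-ins) could therefore hardly change and is no separate result. Ttk and Kif20b fell, and Cenpe and Prc1 rose, under all 3 scales. Of the 20 genes that passed the test, 7 passed it in the same direction with total counts and 4 with spike-ins. Directions are given below on the median-of-ratios scale.

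**Figure D1:**
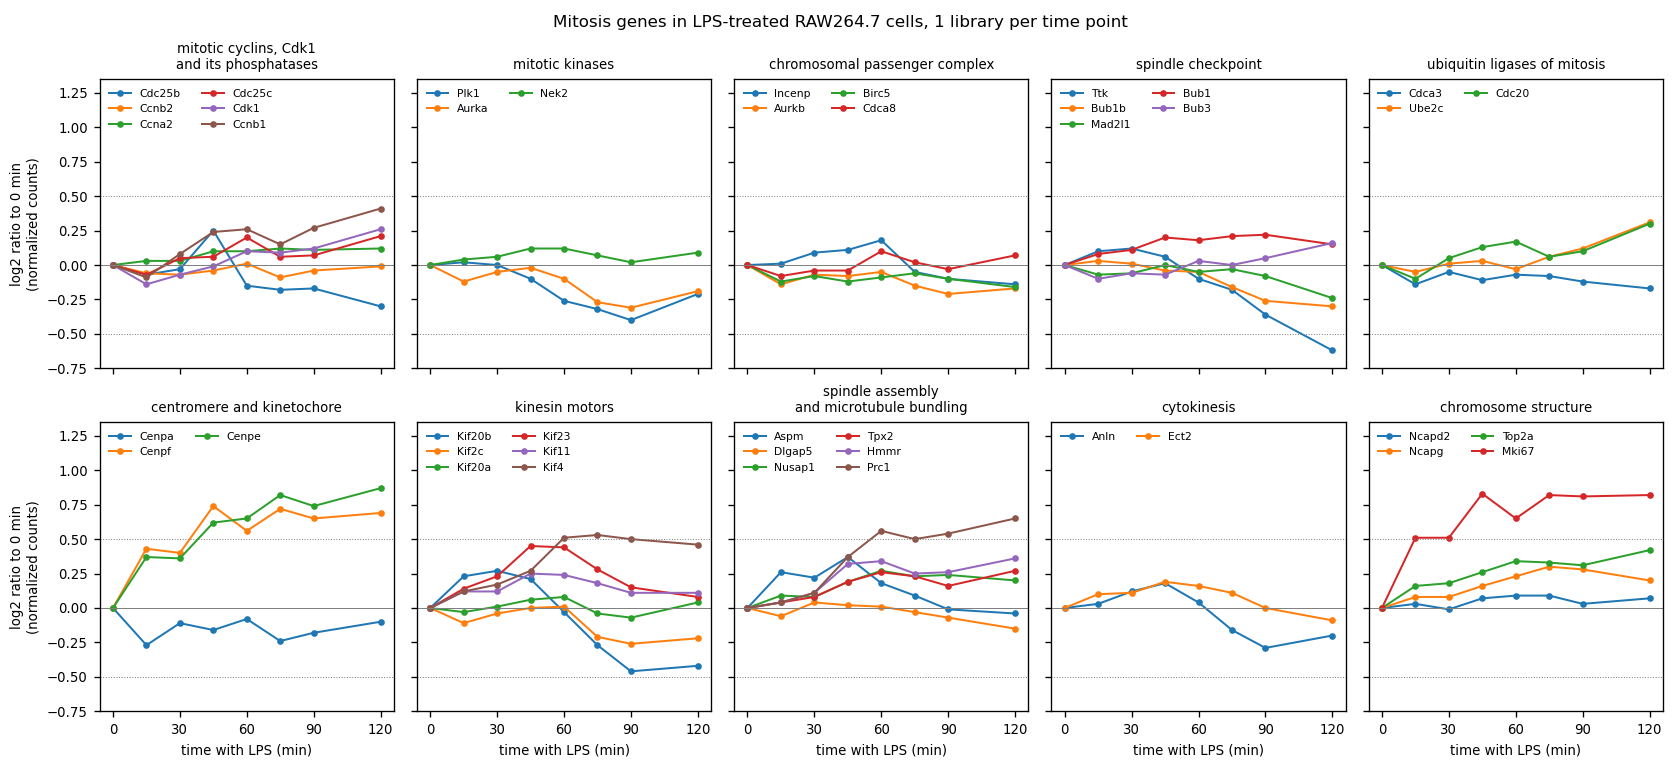
Log2 ratio of normalized counts to the 0 min library (vertical axis) against minutes with LPS (horizontal axis) for the 42 mitosis genes, in 10 panels by role; each point is 1 library and the dotted lines mark a log2 ratio of 0.5 in either direction. All lines except those of Mki67, Cenpf, Cenpe, Prc1, Kif4 and Ttk stay between the dotted lines.

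In 36 of the 42 genes no library differed from the 0 min library by more than 0.5 on the log2 scale. The 6 others make up 14.3% of the mitosis genes. Of the same 8406 genes, 31.0% passed that limit in at least 1 library. At 60 min, 5 mitosis genes were higher by more than that (Kif4, Cenpf, Mki67, Prc1 and Cenpe) and none was lower, where 9.09% of all genes tested were higher and 7.47% lower. At 120 min, 4 were higher (Cenpf, Mki67, Prc1 and Cenpe) and 1 was lower (Ttk), where 16.9% of all genes were higher and 15.9% lower. The largest difference was that of Cenpe at 120 min, 1.82-fold. These ratios compare single libraries and have no replicate check.

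The time courses can also be sorted by their significant maxima and minima, after the rules of the study, into genes with a late maximum (g1), a late minimum (g2), an early extremum followed by its opposite (g3 and g4) or none (g0). The study tested with DESeq. Here edgeR's exact test was used with edgeR's dispersion trend, so that the groups need not match those of the study. By pairwise tests of the libraries, 41 of the 42 mitosis genes were in g0. The share of all genes tested in g0 was not computed, so this count has no background. Cenpe was in g1, with its maximum at 120 min, where 7.48% of all genes tested were in g1. No mitosis gene was in g2, which held 6.41% of all genes tested. These tests compare libraries and not conditions, and the membership of Cenpe in g1 was lost with total counts, with adjusted p-values or with a log2 limit of 1. Their dispersion was fitted with the 8 libraries as replicates, so that changes over time counted as scatter, which favours g0. With DESeq2's dispersion trend Prc1 was also in g1, and Mki67 and Cenpf had a maximum at 45 min and were in none of these groups.

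The promoters of these genes share sequence elements that the choice by symbol did not use. RefSeq promoters of GRCm38.p6, 250 bases before to 50 after an annotated start, were given for 35 of the 42 genes (38 promoters). The CHR letters TTTGAA or TTTAAA, read on both strands (TTTGAA appears as TTCAAA on the other strand and TTTAAA is its own complement), were found in 86.8% of these promoters and in 27.6% of all 32851 promoters. TTTGAA alone was found in 78.9% and 17.9%. CCAAT on either strand, the letters of the box bound by NF-Y, was found in 84.2% against 37.4%, and 2 or more copies in 60.5% against 11.7%. A CHR word and CCAAT together were found in 76.3% against 10.7%. In 26 of the 35 genes a CHR word began between 60 bases before and 50 bases after a start. A match describes letters and not a bound site. The windows shown are from 3 genes that fell and 6 that rose, to show the word side by side in both, and that of Cdc20 also holds CCAAT. They are 30 bases, written 5′ to 3′ on the strand of the gene, with the CHR word in capitals.
Kif20b (chr19:34922353-34922382, plus strand): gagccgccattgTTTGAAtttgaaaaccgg
Ttk (chr9:83834684-83834713, plus strand): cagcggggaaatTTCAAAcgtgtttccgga
Plk1 (chr7:122159453-122159482, plus strand): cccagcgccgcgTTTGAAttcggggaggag
Prc1 (chr7:80294434-80294463, plus strand): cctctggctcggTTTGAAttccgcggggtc
Mki67 (chr7:135716460-135716489, minus strand): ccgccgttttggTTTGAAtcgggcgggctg
Cenpf (chr1:189688067-189688096, minus strand): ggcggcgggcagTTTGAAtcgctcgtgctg
Kif4 (chrX:100626072-100626101, plus strand): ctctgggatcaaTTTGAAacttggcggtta
Cdk1 (chr10:69352910-69352939, minus strand): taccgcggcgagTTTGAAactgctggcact
Cdc20 (chr4:118437344-118437373, minus strand): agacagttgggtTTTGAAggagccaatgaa
The same word thus stands near the start of genes that fell (Kif20b, Ttk, Plk1) and of genes that rose (Prc1, Cenpf, Kif4, Cdk1, Cdc20). The median slope of the 30 genes with a CHR word was 0.04 log2 per hour and that of the 5 without was 0.03. For CCAAT the medians were 0.05 with (29 genes) and -0.1 without (6 genes), and for a CHR word together with CCAAT 0.08 with (26 genes) and -0.08 without (9 genes). These medians rest on few genes and the differences were not tested.

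The groups by role below hold 2 to 6 genes each, and their counts stand beside 23.7% of all genes tested that fell and 23.7% that rose. Among the cyclins, Cdk1 and its phosphatases, 2 of 6 genes rose, none fell, and 4 did not pass the test. Ccnb1, which encodes cyclin B1, the activating partner of Cdk1 at mitotic entry, had 27019, 25389, 28504, 31889, 32452, 29947, 32509 and 36011 normalized counts in the order of time from 0 to 120 min. Its lowest value was in the 15 min library and its highest in the 120 min library, 1.33-fold the level at 0 min, and it rose by 0.22 ± 0.05 log2 per hour (standard error, n = 8 libraries, edgeR adjusted p = 0.00451). Cdk1, the kinase of mitotic entry, had 23438, 21339, 22328, 23276, 25118, 25031, 25553 and 28090 normalized counts at the same times. Its 3 earliest libraries after LPS lay below the 0 min value and its 4 latest above it, with a slope of 0.17 ± 0.04 log2 per hour (n = 8, edgeR adjusted p = 0.0059). Cyclin B2 (Ccnb2) had a slope of 0.00 ± 0.03, and cyclin A2 (Ccna2), which acts from S phase to early mitosis, one of 0.06 ± 0.03. Cdc25b, a phosphatase that activates Cdk1, had 2693, 2563, 2643, 3200, 2432, 2376, 2397 and 2190 normalized counts, with its highest value at 45 min and every other library after LPS below 0 min, and a slope of -0.16 ± 0.07 (n = 8, edgeR adjusted p = 0.109). Cdc25c, a related phosphatase, had a slope of 0.11 ± 0.04 (n = 8, edgeR adjusted p = 0.0627). The slopes of the 2 phosphatases had opposite signs, and neither passed the test.

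Of the 3 mitotic kinases, Plk1 and Aurka fell. Plk1, which promotes mitotic entry, centrosome maturation and cytokinesis, had 9356, 9510, 9338, 8719, 7794, 7475, 7067 and 8107 normalized counts from 0 to 120 min. It was level up to 30 min, lowest at 90 min and partly recovered at 120 min, with a slope of -0.19 ± 0.05 log2 per hour (n = 8, edgeR adjusted p = 0.0203). The slope was -0.312 without the 120 min library, and the call was lost without the 0 min (edgeR adjusted p = 0.0508) or the 15 min library (0.0589). Aurka, the aurora kinase of the centrosome and spindle poles, had its highest value at 0 min (17562 normalized counts) and its lowest at 90 min (14167), with a slope of -0.12 ± 0.05 (n = 8, edgeR adjusted p = 0.0484). Its call was lost without any of 5 of the 8 libraries. Nek2, a centrosomal kinase, had a slope of 0.03 ± 0.03. None of the 4 genes of the chromosomal passenger complex, which corrects faulty attachments, passed the test. The slopes were -0.08 for its kinase Aurkb, -0.09 for the scaffold Incenp, -0.04 for Birc5 (survivin) and 0.05 for Cdca8 (borealin).

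In the spindle checkpoint, 2 of 5 genes fell and 1 rose. Ttk, the kinase that starts the checkpoint signal and is also known as Mps1, had 5584, 5981, 6054, 5816, 5205, 4930, 4344 and 3625 normalized counts. It was above its 0 min level at 15 to 45 min and below it in each of the 4 later libraries. At 120 min the ratio to 0 min was 0.649 (log2 -0.62, 95% counting interval -0.68 to -0.57), and the slope was -0.35 ± 0.06 log2 per hour (n = 8, edgeR adjusted p = 0.00207). Bub1b, which encodes the checkpoint protein BubR1, had 41748, 42737, 42099, 40486, 40235, 37377, 34937 and 33801 normalized counts. Its 3 latest libraries were the 3 lowest, and it fell by 0.18 ± 0.03 log2 per hour (n = 8, edgeR adjusted p = 0.00198). Bub3, the partner of Bub1 and BubR1, had 29876, 27926, 28708, 28376, 30479, 29977, 30901 and 33267 normalized counts and rose by 0.10 ± 0.03 (n = 8, edgeR adjusted p = 0.0414), but had a slope of -0.034 with total counts as the scale. All the early libraries of Bub3 were below 0 min, and its call was kept in only 2 of the 8 fits without 1 library. Bub1 (0.08 ± 0.04) and the checkpoint effector Mad2l1 (-0.08 ± 0.03) did not pass the test.

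The anaphase-promoting complex takes its mitotic activator from Cdc20 and its ubiquitin-conjugating enzyme from Ube2c. Both mRNAs rose, by 0.15 ± 0.04 log2 per hour each (n = 8, edgeR adjusted p = 0.0195 for Cdc20 and 0.0114 for Ube2c). They were highest at 120 min, at 20160 and 12714 normalized counts against 16342 and 10230 at 0 min. Without the 120 min library neither passed the test (edgeR adjusted p up to 0.173 for Cdc20 and 0.13 for Ube2c over the fits without 1 library). Cdca3, part of a ligase that targets the Cdk1 inhibitor Wee1, had a slope of -0.05 ± 0.03.

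The centromere genes included the steepest rise, as long as the length trend described below was not removed. Cenpe, a kinesin of the kinetochore that moves chromosomes to the spindle equator, had 11604, 15037, 14911, 17784, 18219, 20510, 19436 and 21157 normalized counts. All 7 libraries after LPS were above 0 min, and the slope was 0.40 ± 0.07 log2 per hour (n = 8, edgeR adjusted p = 0.00143). With the length trend removed, the slope of Cenpe was 0.32, below the 0.38 of Prc1. Cenpf, a large protein of the outer kinetochore, had 13561, 18287, 17852, 22711, 19981, 22304, 21236 and 21943 normalized counts. Most of its difference from 0 min was present by 15 to 45 min, and the slope was 0.28 ± 0.09 (n = 8, edgeR adjusted p = 0.0296). Without the 0 min library it was 0.153 (edgeR adjusted p = 0.106), the call was lost in 4 of the 8 fits without 1 library, and with the length trend removed the slope was 0.14. Cenpa, the histone variant that marks the centromere, was lower than at 0 min in all 7 later libraries (log2 -0.27 at 15 min and -0.10 at 120 min), without a slope that passed the test (-0.02 ± 0.05).

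The 6 kinesins parted in direction. Kif20b, a motor of the late spindle and midbody, had 12652, 14826, 15262, 14612, 12416, 10509, 9220 and 9463 normalized counts. It was 0.21 to 0.27 log2 units above 0 min at 15 to 45 min and below it at 90 min (log2 -0.46), and had the steepest fall of the 42 genes, -0.36 ± 0.09 log2 per hour (n = 8, edgeR adjusted p = 0.0104). Kif4, a chromokinesin that works with Prc1 on the central spindle, had 10794, 11703, 12163, 13006, 15405, 15585, 15249 and 14803 normalized counts. It stepped up between 45 and 60 min, stayed at that level, and rose by 0.27 ± 0.06 (n = 8, edgeR adjusted p = 0.00535). Kif23, a motor of the centralspindlin complex, was highest at 45 min (25409 normalized counts against 18652 at 0 min, log2 0.45) and near its 0 min level again at 120 min (19778), a course that a straight line does not describe (slope 0.02 ± 0.09). Kif11, the motor that separates the spindle poles, had a similar but flatter course with 29200 normalized counts at 45 min, 24560 at 0 min and 26463 at 120 min. Kif20a (0.00 ± 0.04) and Kif2c (-0.12 ± 0.04, edgeR adjusted p = 0.0509) did not pass the test.

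Of the 6 genes of spindle assembly and microtubule bundling, 4 rose and none fell. Prc1, which bundles the antiparallel microtubules of the central spindle, had 19854, 20404, 21480, 25739, 29250, 28155, 28827 and 31103 normalized counts. It was level up to 30 min and higher in all 5 later libraries, 1.57-fold at 120 min (log2 0.65, counting interval 0.62 to 0.67), with a slope of 0.36 ± 0.05 log2 per hour (n = 8) and the smallest edgeR adjusted p of the 42 genes, 0.000933. Hmmr (0.17), Tpx2 (0.13), which activates aurora A on the spindle, and Nusap1 (0.11 log2 per hour, but -0.022 with total counts) also rose. Aspm, a spindle pole protein, had 12135 normalized counts at 0 min, 15654 at 45 min and 11772 at 120 min, and Dlgap5 stayed within 0.15 log2 units of 0 min. In cytokinesis, Anln, which links actin and septins in the cleavage furrow, had 29964, 30502, 32554, 34040, 30817, 26753, 24515 and 26083 normalized counts. It was highest at 45 min and lowest at 90 min, and its slope of -0.17 ± 0.07 had an edgeR adjusted p of 0.0588 (n = 8). Ect2, the exchange factor that activates RhoA at the furrow, was also highest at 45 min, with a slope of -0.06 ± 0.05.

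Of the 4 genes of chromosome structure, 3 rose and none fell. Mki67, which encodes the proliferation marker Ki-67 on the surface of mitotic chromosomes, had 81348, 116224, 115480, 144923, 127628, 143339, 142747 and 143935 normalized counts. It was 0.51 log2 units above 0 min already at 15 min and 0.82 at 120 min, with a slope of 0.33 ± 0.09 log2 per hour (n = 8, edgeR adjusted p = 0.0202). Without the 0 min library the slope was 0.186 (edgeR adjusted p = 0.0484), and with the length trend described below removed the log2 ratio at 15 min was 0.29 and the slope 0.21. Top2a rose by 0.18 ± 0.03 (n = 8, edgeR adjusted p = 0.00242), from 93697 normalized counts at 0 min to 125070 at 120 min. Among the condensin subunits Ncapg rose (0.13 ± 0.04, but -0.006 with total counts) and Ncapd2 did not pass the test (0.04 ± 0.03). Mki67 and Top2a had the highest normalized counts, which also grow with transcript length, and Mki67 ranked only 8 by rpkm at 0 min (74.0). They carried much of the rise in summed counts of the 42 genes. The sum was 823391 normalized counts at 0 min and 966020 at 120 min (log2 0.23), but the log2 ratio was 0.10 without these 2 genes. The length trend was not removed from this sum. Outside Rn45s, the 42 genes took 0.801% of the reads at 0 min, 0.911% at 45 min and 0.822% at 120 min.

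**Figure D2:**
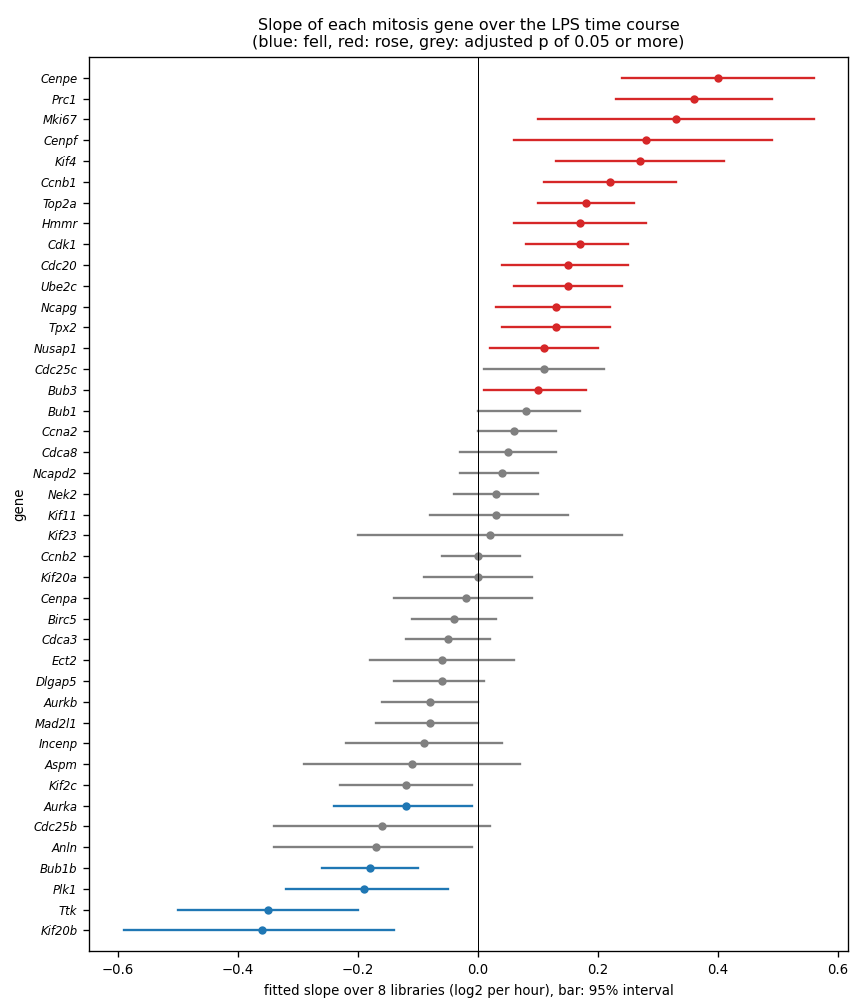
Fitted slope of each mitosis gene over the 8 libraries in log2 per hour (horizontal axis), ordered by slope (vertical axis); bars are 95% intervals from the standard error with 6 residual degrees of freedom, on the median-of-ratios scale blue marks the 5 genes that fell, red the 15 that rose and grey the 22 that did not pass the test. The slopes run from -0.36 for Kif20b to 0.40 for Cenpe, and those in grey lie between -0.17 and 0.11.

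Transcript length moved with these ratios. At 15 min, the log2 ratio to 0 min rose with the log2 length of the transcript across the 42 genes, with a Pearson r of 0.83 and a Spearman rho of 0.76; at 45 min r was 0.75 and at 120 min 0.37. The points share the same pair of libraries and are not independent. Across 10394 genes with a mean of at least 100 normalized counts, Spearman's rho at 15 min was 0.6. The 4 mitosis genes of 7 kb or more were Cenpf (11130 bases), Mki67 (10061 bases), Aspm (9867 bases) and Cenpe (7910 bases), with log2 ratios of 0.26 to 0.51 at 15 min, where the median of all 770 genes of that length was 0.2. At 120 min these 4 lay between -0.04 and 0.87, and the median of the 770 was 0.29. After each library's trend with length was removed, Cenpe kept a log2 ratio of 0.62 at 120 min, Prc1 0.67, Mki67 0.48 and Cenpf 0.31, so that 2 genes were higher by more than 0.5 in place of 4, and 1 in place of 5 at 60 min. The shares of all genes past that limit were not computed after this removal. Aspm (-0.23 log2 per hour, edgeR adjusted p = 0.00131) and Anln (-0.18, 0.0325) then fell, and Cdc25c (0.14, 0.0184), Bub1 (0.10, 0.0296) and Ccna2 (0.08, 0.0169) rose, which made 6 falling and 18 rising genes, and 19 of the 20 genes that had passed the test still did in the same direction, all but Aurka. In the fit with the length trend removed, 2981 of all genes tested fell and 3130 rose. The part of length in the remaining ratios was not tested.

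**Figure D3:**
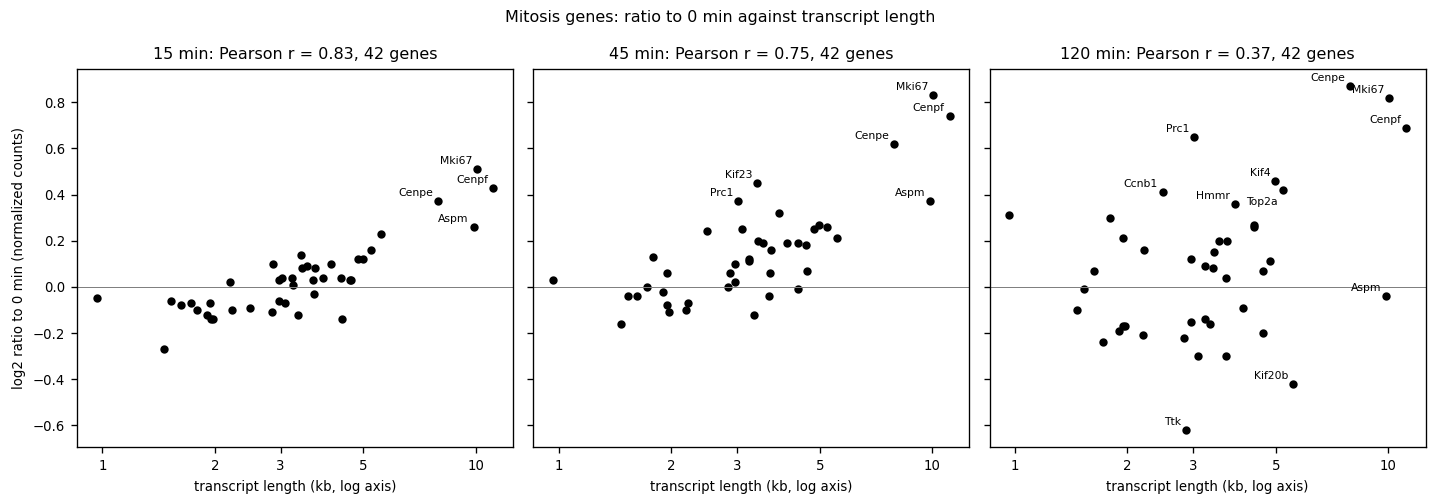
Log2 ratio of normalized counts to 0 min (vertical axis) against transcript length in kb on a log axis (horizontal axis) for the 42 mitosis genes at 15, 45 and 120 min; each point is a gene. The points climb with length at 15 min (Pearson r = 0.83) and 45 min (r = 0.75) and spread apart at 120 min (r = 0.37), where Prc1 is high and Ttk and Kif20b are low at medium lengths.

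Slopes were also fitted within the 4 libraries with a low share of Rn45s (0, 30, 60 and 120 min) and within the 4 with a high share (15, 45, 75 and 90 min). These are parts of the 8 libraries on which the 20 genes were called, so that their signs are not independent of the call and are given as values only. For Ttk the slopes were -0.35 and -0.37 log2 per hour, for Kif20b -0.27 and -0.59, for Prc1 0.35 and 0.39, for Cenpe 0.42 and 0.33, and for Mki67 0.37 and 0.21. With only 4 libraries, fewer mitosis genes passed the test, 0 falling and 5 rising with the low share and 3 and 2 with the high share. Of all genes tested, 1057 fell and 1518 rose with the low share, and 1029 and 1030 with the high share. With the low share, 4 mitosis genes fell and 12 rose at an unadjusted p under 0.05 by edgeR. At that looser limit no share of all genes was computed, so these 2 counts have no background to be read against. With the Rn45s share as a term in the fit, 18 of the 20 genes still passed. The 42 genes did not move as a block, though their pairs were positive somewhat more often than those of all genes. Over the 8 libraries the correlation between 2 of the 42 genes had a median of 0.18 and quartiles of -0.37 and 0.66 (861 pairs). For all genes the median was -0.0 and the quartiles were -0.5 and 0.5. Positive correlations made up 57.4% of the pairs of mitosis genes and 49.9% of those of all genes.

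Lists of transcription factors and of cell cycle inhibitors are given for comparison. Of 22 genes listed under G2/M transcription, 8 fell and 3 rose (median slope -0.06 log2 per hour), where 23.7% of all genes tested fell and 23.7% rose. Not every gene of this list is particular to G2/M transcription. E2f2, an activator of S phase genes, had 7463 normalized counts at 0 min and 1626 at 120 min (0.218-fold), and fell by 1.30 log2 per hour. E2f8, a repressor of that family, fell by 0.53, and Rbl2, the p130 subunit of the DREAM repressor, by 0.50. Foxm1, an activator of many mitosis genes and outside the 4 steepest of this list, had a slope of -0.26. E2f5 rose by 0.29.

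A list of inhibitors of Cdk1, of mitotic entry and, more widely, of the cell cycle held 15 tested genes. Not every gene of this list inhibits Cdk1 or mitotic entry. Of the 15, 6 rose and 6 fell, where 23.7% of all genes tested rose and 23.7% fell, and the 4 steepest slopes were upward. Gadd45b, a stress protein that can block Cdk1, had 578, 482, 750, 1161, 2290, 6749, 11478 and 17632 normalized counts, a 30.5-fold higher level at 120 min. Gadd45a was 27.8-fold, the polo-like kinase Plk2 12.5-fold and Cdkn1a, which encodes the Cdk inhibitor p21, 5.22-fold higher at 120 min than at 0 min. Among those that fell, the Cdk inhibitor genes Cdkn2d and Cdkn1b (p27) were at 0.367-fold and 0.438-fold, the checkpoint kinase Chek2 at 0.436-fold and Wee1, the kinase that inhibits Cdk1 directly, at 0.742-fold of their 0 min levels at 120 min. In the same libraries, no mitosis mRNA was further than 0.87 log2 units from its 0 min level.

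Other lists of the mitotic machinery were measured in the same fit, in which 23.7% of all genes tested fell and 23.7% rose. In the anaphase-promoting complex and its inhibitors, 3 of 15 fell and 4 rose, with Fbxo5, the inhibitor Emi1, at -0.38 log2 per hour, Ube2s, the partner of Ube2c, at 0.29, Cdc23 at -0.17 and Cdc27 at 0.17. Of 33 other kinetochore and passenger genes, 9 fell and 6 rose, with Cenpc1 at 0.73, Cdca2 at -0.42, Zwint at 0.39 and Ska2 at -0.36. None of 16 cohesin, separase and condensin genes fell and 6 rose, led by the cohesin releaser Wapal at 0.30, Rad21 at 0.26, Ncapg2 at 0.19 and Smc2 at 0.18. Of 33 other motors, microtubule factors and further mitosis genes, 4 fell and 12 rose. The steepest of those that passed the test were the 4 that fell, Mastl (-0.84), the kinase that restrains a phosphatase opposing Cdk1, Depdc1b (-0.57), Fam64a (-0.53) and Cenpj (-0.34). The median slope of each of these 4 lists lay between -0.04 and 0.10, against 0.03 for the 42 genes.

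**Figure D4:**
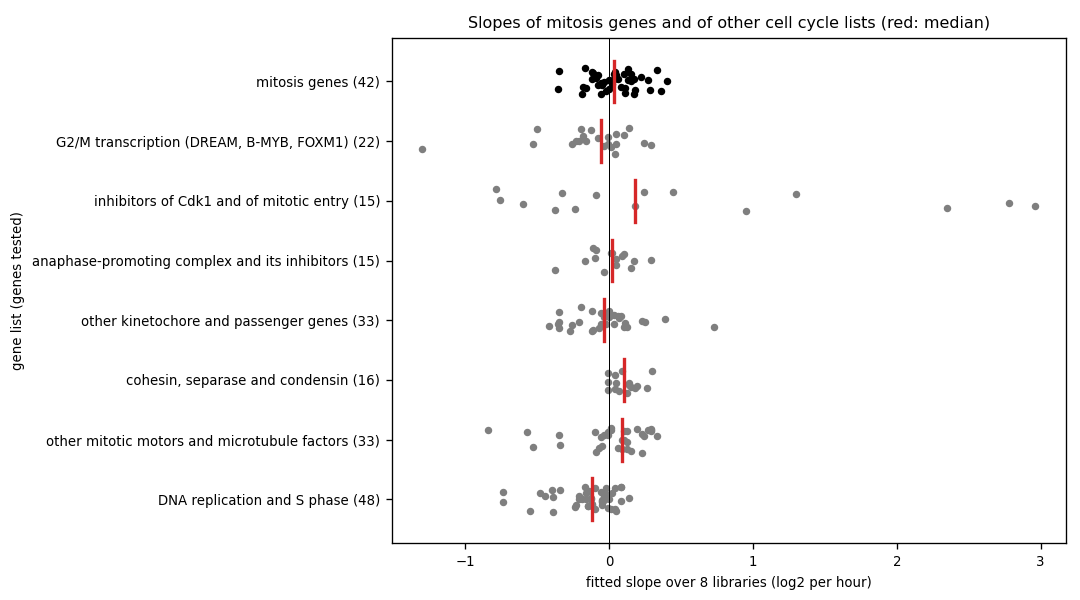
Fitted slope in log2 per hour (horizontal axis) of each tested gene in the 42 mitosis genes (black) and in 7 other cell cycle lists (grey, vertical axis); each point is a gene, its height within a row is arbitrary and the red line is the median of the list. The mitosis genes span -0.36 to 0.40, while the list of inhibitors, not all of which act on Cdk1 or mitotic entry, reaches 2.96 and the DNA replication genes have a median of -0.12.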

How the data were processed

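RNA-seq libraries of RAW264.7 cells, 1 per time point, were analysed from the table of raw counts per gene that the authors deposited. Per the methods, Bowtie placed the reads (58 bases) on mm10 RefSeq transcripts, and those that fit more than 1 gene symbol were dropped; the strand used in counting is not given in the sources used here. The submitters' processing notes name CASAVA 1.8.2 and DESeq 1.10.1. The 2 spike-in rows, which took 0.0208 to 0.0316% of reads, were kept out of library sizes and tests. Genes whose normalized counts averaged 10 or more were tested with edgeR 4.0.16 (R 4.3.3) for a linear slope over time, at an adjusted p under 0.05 and with 6 residual degrees of freedom. A ratio between 2 libraries was called beyond 0.5 on the log2 scale and given with an exact conditional binomial 95% interval, which covers counting error only. DESeq2 1.42.0 served as an alternative. Rpkm values used unique 58-mers of GENCODE vM21 transcripts (GRCm38). The fit was tested on simulated data. Every one of the 42 genes may be named; values in every library are given for the 6 steepest falls and rises, for genes past 0.5 at 60 or 120 min and for Cdk1 and Bub3, and up to 4 genes are named of each other list, Foxm1, Cdkn1b, Chek2, Cdkn2d and Wee1 being added after their values were seen. The 42 genes and the lists were chosen with earlier results of these data known. Spi1 and Ly6g were not analysed here.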

Additional observations from a re-analysis of the deposited data

How the results depend on the processing

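Total counts as the scale gave 16 falling and 2 rising genes (5 and 15 otherwise), where 4466 of all genes tested fell and 1203 rose. The median slope of the mitosis genes was -0.102 in place of 0.029 log2 per hour. With this scale 2 genes were higher at 60 min, 3 lower and 2 higher at 120 min, 1 (Ttk) was in g2 and none in g1. Bub3 (-0.034), Nusap1 (-0.022) and Ncapg (-0.006) then changed sign. Spike-ins as the scale, chosen after seeing the data, gave 2 falling and 2 rising genes (1867 and 1101 of all genes tested) and a median of -0.028. With spike-ins 1 gene was lower and 0 higher at 60 min, and 2 were lower at 120 min. Removing the length trend left 1 gene higher at 60 min and 2 lower and 2 higher at 120 min. With 0 and 15 min as the baseline, 1 was higher at 60 min and 2 lower at 120 min, and with a log2 limit of 1 there were 0 in each of the 3 sets that had members. The group g1 had 0 members with adjusted p-values or a log2 limit of 1 and 2 with DESeq2's dispersion trend. For the ratio and group counts of this section, no shares of all genes were computed under the changed settings. The 0, 30, 60 and 120 min libraries alone gave 0 falling and 5 rising, and the 15, 45, 75 and 90 min libraries 3 and 2, both subsets also chosen after seeing the data. Without 1 library at a time, 4 to 7 genes fell and 10 to 15 rose, with median slopes of 0.025 to 0.042. In these fits 2389 to 2923 of all genes tested fell and 2390 to 3064 rose. Of the 20 genes called, 9 passed in each of these fits. Without the 120 min library the slope also moved by over 1.5 times for Ube2c (0.077), Bub3 (0.06), Nusap1 (0.168) and Ncapg (0.202). Calls were lost for Cdk1 (without 120 min, edgeR adjusted p = 0.0572), Ube2c (120 min, 0.13), Hmmr (0 min, 0.0639), Plk1 and Tpx2 (0 or 15 min, up to 0.0589 and 0.0608), Cdc20 (15 or 120 min, up to 0.173), Cenpf (0, 30, 75 or 90 min, up to 0.106), Ncapg (0, 15, 30 or 90 min, up to 0.0927), Nusap1 (0, 15, 30, 75 or 90 min, up to 0.142), Aurka (0, 30, 60, 75 or 90 min, up to 0.128) and Bub3 (any but 0 or 45 min, up to 0.3). The grouping was not run without the 0 min library, its control. TMM factors, DESeq2's test, other filters and the order of time points moved no count by more than 1.5 times. No paired analysis was possible because each time point has 1 library. The cause of these differences was not tested.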

Other observations

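Of 48 mRNAs of DNA replication and S phase, 25 fell and 1 rose in the same fit, with a median slope of -0.12 log2 per hour, where 23.7% of all genes tested fell and 23.7% rose, and 5 of 42 mitosis genes fell and 15 rose. The difference between the lists was not tested. Cdc6, a loader of the replicative helicase, had 8645 normalized counts at 0 min, 6870 at 60 min and 3374 at 120 min (0.39-fold). Gins3, a helicase subunit, was at 0.373-fold, Tk1, the thymidine kinase of S phase, at 0.449-fold and Gmnn, which encodes the licensing inhibitor geminin, at 0.484-fold their 0 min levels at 120 min, and all 4 fell by the slope test.

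Among 11 macrophage markers, 4 fell and 2 rose, where 23.7% of all genes tested fell and 23.7% rose. Cd14, the LPS co-receptor, was 3.66-fold higher at 120 min than at 0 min, while the Fc receptor Fcgr1 (0.381-fold) and the LPS receptor Tlr4 (0.486-fold) fell, as did Fcgr3 (0.622-fold). Emr1, Itgam, Cd68, Lyz2 and Mpeg1 did not pass the test.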
